A study of Mus musculus with 15 samples.

Results

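D218Y cells were compared directly with R216W cells, both of them G1E cells that carry a changed form of the transcription factor GATA1. The comparison used every array titled with either line, 3 D218Y arrays and 3 R216W arrays, which are 6 of the 15 arrays in the series. G1E is an immature mouse red cell line that lacks functional GATA1. Each line received GATA1 fused to an estrogen receptor domain, so that the hormone estradiol switches the protein on, and every culture had been given 100 nM estradiol for 24 hours. The D218Y fusion has aspartate replaced by tyrosine, and the R216W fusion has arginine replaced by tryptophan. The other lines, with 3 arrays each, carried D218G, R216Q or the wild type fusion (WT), and they are used here to place the pair. Replicates were labelled as biological replicates. The labels do not say whether a construct was introduced once or several times, so each was taken as 1 line, and line and mutation cannot be told apart. Every p-value rests on how far these cultures spread. Cells without estradiol were not analysed here.

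GATA1 binds DNA through a pair of zinc fingers and drives the genes of haem, globin and the red cell membrane while it lowers genes of immature progenitors such as Kit and Gata2. Both changed residues lie in the amino-terminal finger, which steadies binding at some DNA sites and also binds the cofactor FOG1, the product of Zfpm1. In people, inherited changes of these residues are known from families with low platelet counts and disorders of red cells, and the arginine-to-tryptophan change is known from congenital erythropoietic porphyria, a disorder of haem synthesis.

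The values were log2 RMA values, 1 per gene and array, for 19933 genes. A difference of 1 on this scale is a 2-fold difference. Array medians ran from 6.24 to 6.29 in D218Y and from 6.32 to 6.36 in R216W, and within either line a gene's standard deviation had a median of 0.05. Pairs of arrays within D218Y correlated at 0.9990 to 0.9991 across genes and pairs within R216W at 0.9991 to 0.9992, whereas pairs across the lines correlated at 0.986 to 0.988. Genes are not independent replicates, so these correlations describe the arrays. On the first principal component of all 15 arrays, with 58.8% of the variance, the D218Y arrays lay from 34.5 to 37.1 and the R216W arrays from -13.3 to -11.9. RNA came from whole cultures, in which fewer cells of a type and less RNA per cell cannot be told apart.

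Gata1 transcript was close in both lines. It read 12.07, 12.05 and 12.08 in the D218Y arrays, against 12.24, 12.25 and 12.26 in the R216W arrays. The groups did not overlap, and Gata1 fell by 0.18 ± 0.03 on the log2 scale in D218Y (limma's moderated standard error, SE, adjusted p = 1.46e-04). With 3 against 3 arrays, a two-sided exact permutation test gave p = 0.1, the smallest it can give. Whether the probe set also reads transcript of the disrupted endogenous allele was not tested, and the amount of GATA1 protein was not measured.

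Differences between the lines were widespread. In limma's test with Benjamini-Hochberg adjustment over all genes, 7230 of 19933 genes (36.3%) had an adjusted p under 0.05, with 3746 higher in D218Y (18.8%) and 3484 lower (17.5%). Most were small. The median size of a called difference was 0.33, the smallest was 0.09, and 70.7% were under 0.5 on the log2 scale. At least a 2-fold difference was reached by 515 genes (2.58%), of which 326 were higher in D218Y (1.64%) and 189 lower (0.948%). At least a 4-fold difference was reached by 36 genes that were higher and 34 that were lower in D218Y. The arrays of the lines did not overlap in 10535 genes (52.9%), with D218Y above in 4413 (22.1%) and below in 6122 (30.7%). The median difference of all genes was -0.05.

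How often a gene was called depended on its level. With the genes cut into 4 equal bins by mean level, 6.9% passed the threshold in the lowest bin, 53.1% in the next to highest and 70.0% in the highest. Counts for lists of bright genes are therefore read against the higher shares and counts for lists of dim genes against the lower ones. The share at matched level, given with each list, is the mean of these bin shares over the list's members.

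**Figure D1:**
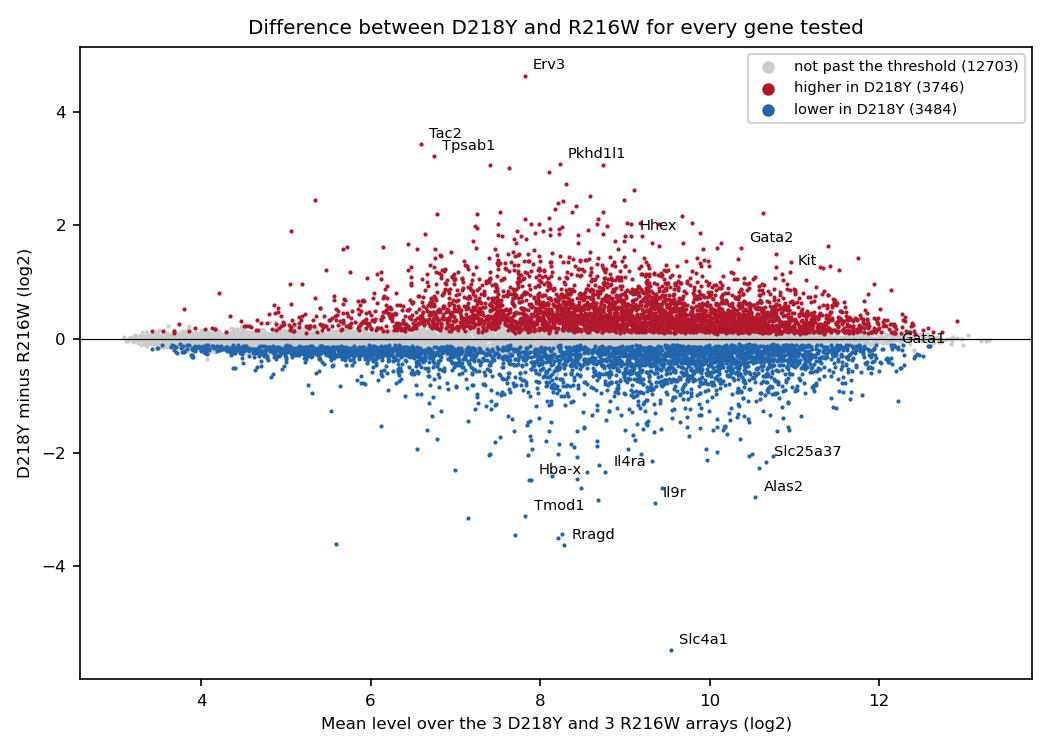
Each point is 1 of 19933 genes, with its mean level over the 6 arrays on the x axis (log2) and the D218Y minus R216W difference on the y axis (log2). Red points (3746) were higher and blue points (3484) lower in D218Y at an adjusted p under 0.05, and Slc4a1 (-5.48) and Erv3 (4.63) lie farthest from 0.

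Large differences lay mostly where D218Y stood apart from the rest of the series, and more rarely where R216W did. Of the 326 genes at least 2-fold higher in D218Y, 308 (94.5%) had all 3 D218Y arrays above the 12 other arrays, against 14.0% of all genes. In 76 of them (23.3%) all 3 R216W arrays were below the 12 other arrays, against 3.13% of all genes. Of the 189 genes at least 2-fold lower in D218Y, 162 (85.7%) had the D218Y arrays below the 12 others, against 10.9% of all genes, and 86 (45.5%) had the R216W arrays above the 12 others, against 4.13%. The 2-fold threshold already used both lines' arrays, so these shares describe the genes and are not a test.

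The largest falls were led by Slc4a1, the band 3 anion exchanger that is the most abundant protein of the red cell membrane. Slc4a1 read 6.77, 6.93 and 6.72 in the D218Y arrays, against 12.28, 12.31 and 12.27 in the R216W arrays. The D218Y arrays lay far below every R216W array. In limma's test the gene fell by 5.48 ± 0.05 (SE), or 44.6-fold (adjusted p = 2.9e-17). The other lines stood on the R216W side, at means of 11.30 ± 0.03 (D218G), 11.35 ± 0.07 (R216Q) and 12.41 ± 0.05 (WT; SD, n = 3 each).

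Alas2 encodes the first enzyme of haem synthesis in red cells. It read 9.32, 9.03 and 9.09 in the D218Y arrays, against 11.97, 11.88 and 11.96 in the R216W arrays. The groups did not overlap, and Alas2 fell by 2.79 ± 0.06 in D218Y, a 6.91-fold difference (adjusted p = 5.34e-14). Tmod1 encodes tropomodulin, which caps the actin filaments of the red cell skeleton. It read 6.29, 6.38 and 6.15 in D218Y, against 9.35, 9.40 and 9.40 in R216W, and fell by 3.12 ± 0.06 (adjusted p = 1.28e-14). Erfe encodes erythroferrone, a hormone of red cell precursors that lowers hepcidin. It read 7.18, 7.18 and 7.14 in D218Y, against 9.78, 9.79 and 9.80 in R216W, and fell by 2.62 ± 0.04 (adjusted p = 6.28e-15). For each of these genes the D218G, R216Q and WT arrays also lay above all D218Y arrays, with the lowest of them at 11.78 for Alas2, 8.42 for Tmod1 and 9.15 for Erfe.

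Other large falls concerned transport, signalling and trafficking. Rragd, a Rag GTPase of the amino acid sensing branch of mTORC1, read 6.37, 6.51 and 6.51 in D218Y, against 10.05, 10.09 and 10.15 in R216W, and fell by 3.63 ± 0.08. Slc22a4, a transporter of ergothioneine and carnitine, fell by 3.50 ± 0.06, with 6.40 to 6.57 in D218Y and 9.93 to 9.99 in R216W. Pla2g4c, a cytosolic phospholipase A2, fell by 3.44 ± 0.06 and Aqp8, an aquaporin, fell by 3.44 ± 0.06. Every one of these genes was dim in D218Y and well up the array scale in R216W. Rgs18, a regulator of G protein signalling found in platelets, fell by 3.15 ± 0.11. Rab3il1, an exchange factor for Rab GTPases, fell by 2.84 ± 0.05, Nek6, a kinase of mitosis, by 2.63 ± 0.07, and Cpne7, a calcium-binding copine, fell by 2.49 ± 0.07. Il1bos, annotated as a transcript opposite to Il1b, fell by 2.46 ± 0.10, and whether its probe set reads that strand alone was not tested. All these adjusted p-values were at or under 3.92e-11.

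The largest rise was that of Erv3, an endogenous retroviral sequence. Erv3 read 10.21, 10.12 and 10.07 in the D218Y arrays, against 5.56, 5.33 and 5.62 in the R216W arrays. The D218Y arrays lay far above every R216W array, and Erv3 rose by 4.63 ± 0.09 on the log2 scale (adjusted p = 2.09e-14). D218G and WT arrays read 5.18 to 5.48 and R216Q arrays 6.91 to 7.18. Piwil4, a Piwi-family protein known for silencing transposable elements in germ cells, read 9.49, 9.48 and 9.49 in D218Y, against 6.96, 7.14 and 7.05 in R216W, and rose by 2.43 ± 0.06 (adjusted p = 3.21e-13).

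Further rises came from enzymes, adhesion proteins and regulators. Npl, the lyase that splits sialic acid, read 10.32, 10.25 and 10.24 in D218Y, against 7.21, 7.19 and 7.26 in R216W, and rose by 3.05 ± 0.07. Ehf, an ETS family transcription factor best known from epithelial cells, read 9.67, 9.56 and 9.48 in D218Y, against 6.68, 6.71 and 6.53 in R216W, and rose by 2.93 ± 0.07. Gsta4, a glutathione transferase that removes products of lipid peroxidation, read 10.38, 10.41 and 10.44 in D218Y, against 7.69, 7.87 and 7.84 in R216W, and rose by 2.61 ± 0.07. None of these genes had overlapping arrays. Crybg1, a protein with crystallin domains, rose by 2.73 ± 0.07, Ccnb1ip1, a ligase known from meiotic crossing over, by 2.52 ± 0.09, and Pkp2, a desmosomal plakophilin, by 2.44 ± 0.07. Hk2, the hexokinase that starts glycolysis, read 9.43, 9.41 and 9.37 in D218Y, against 6.96, 7.14 and 6.94 in R216W, and rose by 2.39 ± 0.09 (adjusted p = 2.05e-11).

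Promoters of 5 genes described here are shown because GATA factors bind short sequences with a GATA core, and because each gene differed by at least 2-fold between the lines. The 5 genes were picked by hand and every window holds a match, so they do not show how often a match occurs. The windows are the 250 bases before the annotated start, from RefSeq's GRCm38.p6 sequence, read 5' to 3' on the gene's strand. Capitals mark any match to the motif AGATAA, to the motif AGATAG, to the motif TGATAA or to the motif TGATAG on either strand, and a match on the opposite strand appears as its reverse complement. Alas2 (chrX:150547167-150547416, plus strand), Hba-x (chr11:32276350-32276599, plus strand), Hemgn (chr4:46404184-46404433, minus strand) and Il9r (chr11:32200280-32200529, minus strand) were lower in D218Y. Ms4a2 (chr19:11623720-11623969, minus strand) was higher in D218Y.
Alas2: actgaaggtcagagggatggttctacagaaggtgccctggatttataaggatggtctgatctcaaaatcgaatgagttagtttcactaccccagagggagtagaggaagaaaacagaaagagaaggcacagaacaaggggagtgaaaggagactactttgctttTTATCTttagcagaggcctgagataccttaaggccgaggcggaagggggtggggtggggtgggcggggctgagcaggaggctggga
Hba-x: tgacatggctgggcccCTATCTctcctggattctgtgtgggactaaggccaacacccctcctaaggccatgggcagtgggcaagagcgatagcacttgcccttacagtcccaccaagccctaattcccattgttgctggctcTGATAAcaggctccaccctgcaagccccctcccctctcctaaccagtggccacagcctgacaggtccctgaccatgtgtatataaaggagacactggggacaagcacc
Hemgn: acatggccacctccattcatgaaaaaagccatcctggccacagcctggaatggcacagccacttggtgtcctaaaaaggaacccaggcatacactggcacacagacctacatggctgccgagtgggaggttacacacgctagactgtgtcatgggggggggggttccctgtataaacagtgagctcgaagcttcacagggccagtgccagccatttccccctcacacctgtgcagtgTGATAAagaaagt
Il9r: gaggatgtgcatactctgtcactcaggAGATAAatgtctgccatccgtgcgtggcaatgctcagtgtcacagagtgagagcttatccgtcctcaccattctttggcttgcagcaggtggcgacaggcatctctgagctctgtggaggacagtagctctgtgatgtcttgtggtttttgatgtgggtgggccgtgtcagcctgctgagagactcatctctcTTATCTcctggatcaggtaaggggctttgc
Ms4a2: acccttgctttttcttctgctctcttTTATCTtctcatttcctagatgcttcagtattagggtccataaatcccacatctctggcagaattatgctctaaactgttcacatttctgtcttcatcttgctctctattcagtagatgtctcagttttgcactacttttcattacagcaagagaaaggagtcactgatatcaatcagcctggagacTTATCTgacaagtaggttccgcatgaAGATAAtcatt

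The windows held 1 match (Alas2), 2 matches (Hba-x), 1 match (Hemgn), 2 matches (Il9r) and 3 matches (Ms4a2). The match in Alas2 lay 86 to 81 bases before the start and the match in Hemgn 13 to 8 bases before it. Such matches were common everywhere: 8718 of the 32851 promoters of this length in the table (26.5%) held at least 1. Among genes tested that had a promoter the share was 25.8% (4020 of 15610). It was 29.2% among genes at least 2-fold higher in D218Y (73 of 250) and 27.0% among genes at least 2-fold lower (43 of 159). Of the 30 genes named for the largest rises and falls, 22 had a promoter in the table and 10 of these held a match. Tmod1, Erfe, Rragd, Slc22a4, Aqp8, Tac2 and Hk2 were among those without a match. A match is a stretch of letters and not evidence of binding.

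Haem synthesis was lower in D218Y at nearly every step. Of 12 measured genes of the pathway and its mitochondrial transport, 11 fell and 1 rose, with a median difference of -0.76 against -0.05 for all genes. All 12 were called (100.0%), against 36.3% of all genes and 70.0% at matched level. The pathway's mean on an array ran from 10.68 to 10.72 in D218Y and from 11.47 to 11.47 in R216W. Besides Alas2, the falls included Abcb10, a mitochondrial inner membrane transporter (-1.20 ± 0.04), Slc25a39, a mitochondrial carrier (-1.13 ± 0.03), Alad, the second enzyme of the pathway (-1.09 ± 0.03), and Fech, which inserts iron into the ring (-0.95 ± 0.05). Slc25a38, the glycine carrier, and Tmem14c, which carries a porphyrin precursor, had the smallest falls (-0.26 ± 0.03 and -0.26 ± 0.04).

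The single rise was in Ppox, which oxidises protoporphyrinogen. It read 11.03, 10.92 and 10.91 in D218Y, against 10.03, 9.98 and 9.92 in R216W, a rise of 0.98 ± 0.04 (adjusted p = 5.72e-11). WT arrays lay between, at 10.72 to 10.74. Uros, whose human counterpart is the gene usually mutated in congenital erythropoietic porphyria, was singled out after its values were seen. It read 9.05, 9.06 and 9.09 in D218Y, against 9.86, 9.84 and 9.88 in R216W and 10.70 to 10.74 in WT. The D218Y arrays were the lower ones, by 0.79 ± 0.04 (adjusted p = 1.64e-10).

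All 5 measured globin genes fell in D218Y (100.0% called, against 48.9% at matched level), with a median of -0.96. Hba-x, the embryonic zeta-globin, read 6.64, 6.71 and 6.60 in D218Y, against 9.13, 8.97 and 9.29 in R216W, and fell by 2.48 ± 0.07 (adjusted p = 1.14e-12). Hbb-bh1, an embryonic beta-type globin, read 9.69, 9.64 and 9.59 in D218Y, against 10.61, 10.17 and 10.59 in R216W, and fell by 0.82 ± 0.10 (adjusted p = 1.04e-05). Both lines lay below WT for Hbb-bh1, whose WT arrays read 11.34 to 11.44. Hbb-y, the epsilon-type globin, fell by 0.90 ± 0.11. The theta-globin copies Hbq1b (-1.79 ± 0.08) and Hbq1a (-0.96 ± 0.09) are near identical, and whether their probe sets read each other's transcript was not tested. Adult globins, whose probe sets carried several symbols, were not analysed here.

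Iron genes went both ways. Of 16 measured, 8 fell, 4 rose and 4 did not pass, with a median of -0.08, and 75.0% were called, near the 69.0% at matched level. Slc25a37, mitoferrin of the mitochondrial inner membrane, read 9.61, 9.56 and 9.58 in D218Y, against 11.76, 11.75 and 11.74 in R216W, and fell by 2.17 ± 0.03 (adjusted p = 4.1e-15). Ncoa4, the receptor that delivers ferritin for breakdown, fell by 0.93 ± 0.04, and Aco1, the iron-sensing RNA-binding protein IRP1, fell by 0.89 ± 0.03. Hmox1, the oxygenase that degrades haem, read 8.89, 8.61 and 8.62 in D218Y, against 7.21, 7.16 and 7.08 in R216W, and rose by 1.56 ± 0.09 (adjusted p = 3.25e-09). Flvcr1, a haem exporter, rose by 0.97 ± 0.07. For Flvcr1 the R216W arrays, at 10.06 to 10.21, were the ones that stood below D218G, R216Q and WT (10.80 to 11.18 over those lines). Ireb2, the other iron-sensing protein, differed by -0.01 ± 0.05 (95% interval -0.11 to 0.09).

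Among red cell surface genes, 16 of 22 fell, 2 rose and 4 did not pass, with a median of -0.65. With 81.8% called, the share exceeded the 57.0% at matched level. After Slc4a1 the largest falls were in Slc14a1, the urea transporter, with 7.46, 7.28 and 7.39 in D218Y against 9.67, 9.78 and 9.73 in R216W (-2.35 ± 0.07, adjusted p = 1.78e-12). Atp1b2, a subunit of the sodium pump, fell by 2.05 ± 0.03, Cd59a, an inhibitor of complement, by 1.94 ± 0.08, and Rhag, the Rh-associated glycoprotein, by 1.06 ± 0.04. Slc29a1, the nucleoside transporter, went the other way, with 10.97, 10.98 and 10.98 in D218Y against 9.24, 9.33 and 9.31 in R216W (1.68 ± 0.04, adjusted p = 2.62e-13). Both lines stood apart for Slc29a1, since the other 9 arrays lay from 10.06 to 10.28, below the D218Y arrays and above the R216W arrays. Icam4, a red cell adhesion protein, differed by 0.04 ± 0.04 (95% interval -0.03 to 0.12) and Aqp1, the red cell water channel, by -0.09 ± 0.09 (-0.28 to 0.11).

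Of 13 genes of the red cell skeleton, 9 fell, 2 rose and 2 did not pass, with a median of -0.28. The threshold was passed by 84.6%, against 68.7% at matched level. After Tmod1, Dmtn, which bundles actin at the skeleton's junctions, read 7.77, 7.67 and 7.75 in D218Y, against 9.61, 9.59 and 9.62 in R216W, and fell by 1.88 ± 0.05 (adjusted p = 3.21e-13). Its WT arrays read 10.60 to 10.69, so the D218Y and R216W arrays were both below WT. Add3, gamma adducin, fell by 1.09 ± 0.03, Kcnn4, a calcium-activated potassium channel, by 0.71 ± 0.04, and Sptb, beta spectrin, by 0.50 ± 0.04. Actb, beta actin, differed by -0.01 ± 0.03 (95% interval -0.07 to 0.06).

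The list of the GATA1 complex and other erythroid regulators also held some erythroid enzymes, such as Car1. Of its 33 members, 19 fell, 10 rose and 4 did not pass, with a median of -0.18. Calls covered 87.9% of them, against 67.5% at matched level. Klf1, the Kruppel-like factor of red cells, read 11.33, 11.32 and 11.24 in D218Y, against 11.50, 11.51 and 11.51 in R216W (-0.21 ± 0.04, adjusted p = 3.09e-04). Zfpm1, encoding FOG1, read 11.49, 11.48 and 11.47 in D218Y, against 11.58, 11.57 and 11.62 in R216W (-0.11 ± 0.03, adjusted p = 0.0183). The Zfpm1 call was lost without D218Y replicate 3 (adjusted p = 0.0552) and without R216W replicate 3 (adjusted p = 0.0782). Tal1, the helix-loop-helix partner, had the largest fall of the 3, with 9.53, 9.51 and 9.53 in D218Y against 10.36, 10.47 and 10.46 in R216W (-0.90 ± 0.04, adjusted p = 3.58e-11). Cbfa2t3, the corepressor ETO2, differed by -0.01 ± 0.04 (95% interval -0.08 to 0.07), and with the mean of its probe sets it differed by -0.15 (adjusted p = 0.004).

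Other members of the list moved in both directions. Hemgn, hemogen, a nuclear protein of maturing red cells, read 8.29, 8.21 and 8.12 in D218Y, against 9.79, 9.79 and 9.82 in R216W, and fell by 1.60 ± 0.05 (adjusted p = 1.58e-12). Trim10, a ring finger protein known from red cell maturation, fell by 1.59 ± 0.03, and Runx1, a factor of blood stem cells and megakaryocytes, fell by 1.28 ± 0.04. For Runx1 the R216W arrays, at 11.22 to 11.31, lay above the WT arrays, at 10.92 to 10.97, and the D218Y arrays, at 9.98 to 10.01, lay below them. Nfe2, the p45 subunit of NF-E2, fell by 0.54 ± 0.04 and Epor, the erythropoietin receptor, by 0.47 ± 0.04. Among the rises, Car1, carbonic anhydrase 1, read 12.18, 12.22 and 12.23 in D218Y, against 10.56, 10.55 and 10.64 in R216W (1.63 ± 0.04, adjusted p = 5.49e-13). E2f4, a cell cycle factor needed in red cell precursors, rose by 0.96 ± 0.04 and Lyl1, a close relative of Tal1, by 0.94 ± 0.05.

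**Figure D2:**
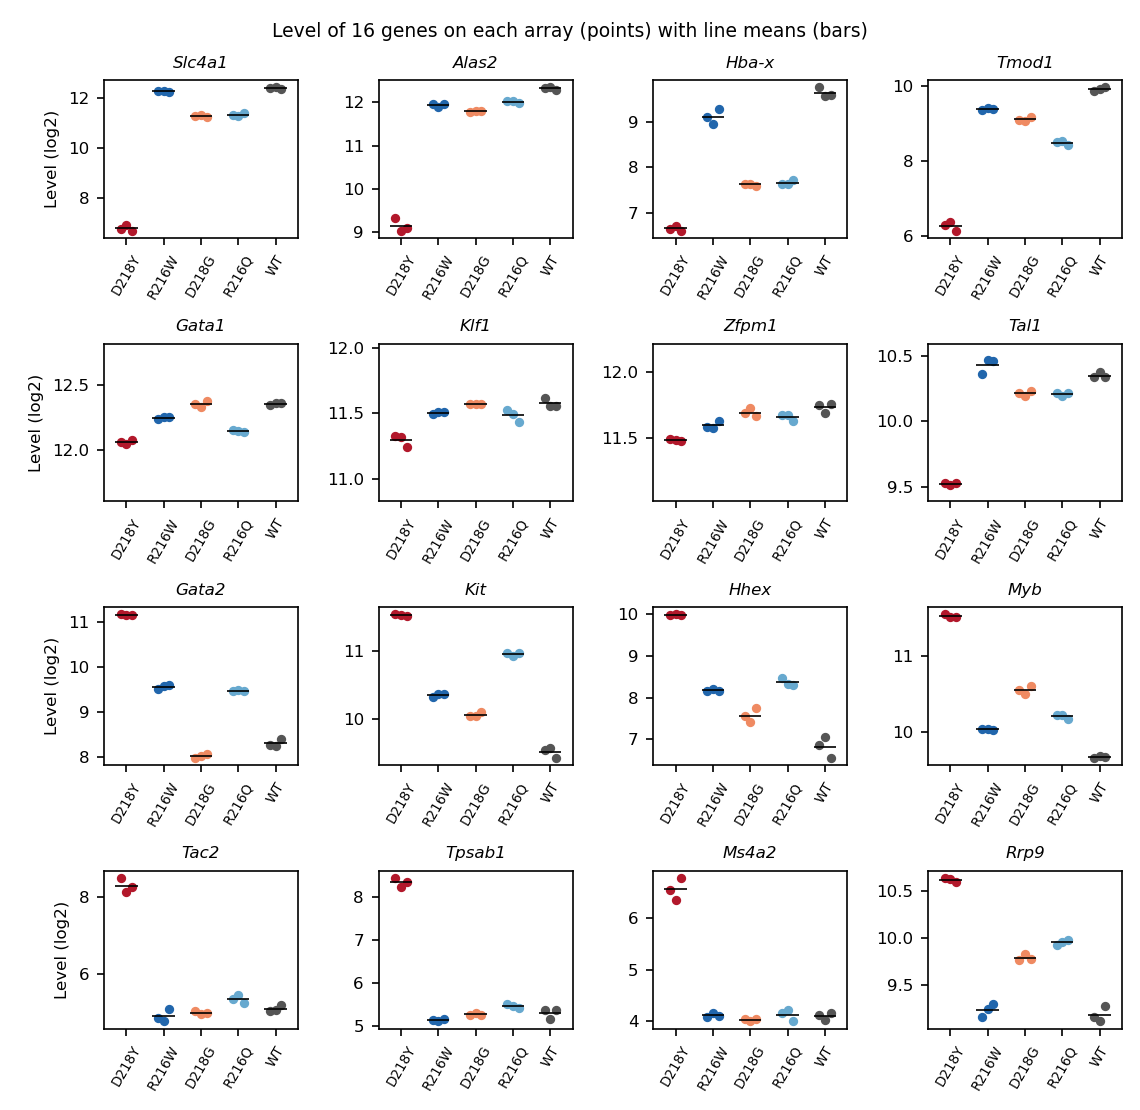
Log2 level of 16 genes on every array (points, 3 per line; bars are line means), with a separate y axis for each gene. Slc4a1, Alas2, Hba-x and Tmod1 were lower and Gata2, Kit, Hhex, Myb, Tac2, Tpsab1, Ms4a2 and Rrp9 higher in D218Y than in R216W, while Gata1, Klf1 and Zfpm1 differed by 0.18, 0.21 and 0.11.

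A subset of progenitor genes stood far higher in D218Y, and the rest hardly moved. Of 26 measured, 10 rose, 9 of them at least 2-fold, 2 fell and 14 did not pass, with a median of -0.02. A share of 46.2% was called, against 34.0% at matched level. Gata2, the GATA factor of stem and progenitor cells, read 11.17, 11.15 and 11.16 in D218Y, against 9.51, 9.59 and 9.61 in R216W, and rose by 1.59 ± 0.04 (adjusted p = 5.98e-13). The receptor for stem cell factor, Kit, read 11.55, 11.54 and 11.53 in D218Y, against 10.32, 10.37 and 10.37 in R216W, and rose by 1.19 ± 0.04 (adjusted p = 6.71e-12). Both genes were already above WT in R216W, by 1.26 for Gata2 and 0.84 for Kit (WT arrays 8.25 to 8.41 and 9.42 to 9.56).

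Hhex, a homeobox factor of progenitors, read 9.98, 9.99 and 9.97 in D218Y, against 8.16, 8.21 and 8.16 in R216W, and rose by 1.81 ± 0.10. Myb, which maintains immature blood cells, read 11.55, 11.51 and 11.52 in D218Y, against 10.04, 10.03 and 10.03 in R216W, and rose by 1.49 ± 0.03. Myc, the growth factor-driven transcription factor, read 11.89, 11.97 and 11.93 in D218Y, against 10.57, 10.72 and 10.73 in R216W, and rose by 1.26 ± 0.05. All D218Y arrays exceeded every other array of the series for these 3 genes. Id1, an inhibitor of helix-loop-helix factors, rose by 1.99 ± 0.05, with R216W at 7.71 to 7.90 and WT at 8.79 to 8.84. Spi1, the myeloid factor PU.1 that opposes GATA1, read 10.02, 9.83 and 9.80 in D218Y, against 8.33, 8.27 and 8.38 in R216W, and rose by 1.56 ± 0.10. The WT arrays read 9.08 to 9.15 for Spi1, between the lines. By contrast, Flt3 (0.02 ± 0.07) and Erg (-0.01 ± 0.05), genes of early progenitors, stayed below 5.86 on every D218Y and R216W array.

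Some mast cell genes were raised in D218Y, and the others were not. Of 19 measured, 8 rose, 4 of them at least 2-fold, 1 fell and 10 did not pass, with a median of 0.04, and 47.4% were called, against 15.2% at matched level. Tac2, a tachykinin precursor that is also made by mast cells, read 8.51, 8.14 and 8.27 in D218Y, against 4.82, 4.74 and 5.06 in R216W, and rose by 3.43 ± 0.09. Tpsab1, a mast cell tryptase, read 8.45, 8.25 and 8.36 in D218Y, against 5.15, 5.11 and 5.17 in R216W, and rose by 3.22 ± 0.06. Ms4a2, the beta chain of the high-affinity IgE receptor, read 6.54, 6.36 and 6.78 in D218Y, against 4.09, 4.17 and 4.11 in R216W, and rose by 2.44 ± 0.08. No R216W array exceeded 5.17 for any of these 3 genes.

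Hdc, which makes histamine, rose by 1.14 ± 0.06, and Cpa3, a mast cell carboxypeptidase, read 6.08, 5.82 and 5.83 in D218Y, against 5.27, 5.17 and 5.25 in R216W, a rise of 0.68 ± 0.07. Tph1, the first enzyme of serotonin synthesis, stood apart from these in R216W. It read 8.67, 8.57 and 8.55 in D218Y and 8.02, 7.97 and 7.86 in R216W, both far above the WT arrays at 5.19 to 5.40. Fcer1a, the alpha chain of the IgE receptor, read 4.02 to 4.09 in D218Y and 3.98 to 4.07 in R216W, and Cma1, a chymase, read 4.93 to 4.96 in D218Y and 4.96 to 4.99 in R216W. The mean of all 19 mast cell genes on an array ran from 5.80 to 5.83 in D218Y and from 5.18 to 5.26 in R216W. Whether a few cells or all cells carried the raised transcripts was not tested.

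Megakaryocyte genes mostly fell or did not pass. Of 19 measured, 7 fell, 2 rose and 10 did not pass, with a median of -0.11. Together 47.4% were called, against 31.4% at matched level. Itgb3, the beta subunit of the platelet fibrinogen receptor, read 6.89, 6.87 and 6.74 in D218Y, against 8.83, 8.81 and 8.98 in R216W, and fell by 2.04 ± 0.05 (adjusted p = 5.98e-13). Gp9, a subunit of the von Willebrand factor receptor, read 7.33, 7.31 and 7.21 in D218Y, against 8.69, 8.69 and 8.66 in R216W, and fell by 1.40 ± 0.06. Gp5, a subunit of the same receptor, moved the opposite way, with 7.52, 7.50 and 7.68 in D218Y against 6.02, 6.06 and 6.22 in R216W (1.46 ± 0.08, adjusted p = 9.18e-10). Plek, pleckstrin, fell by 1.21 ± 0.08 and Tbxas1, thromboxane synthase, by 0.77 ± 0.05. Pkhd1l1, a fibrocystin-like surface protein, had the largest rise, of 3.08 ± 0.06. Clec1b (-0.02 ± 0.04) and Mmrn1 (0.00 lower, SE 0.05), both platelet genes, stayed near the bottom of the array scale in both lines.

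Markers of other lineages were dim. Of 19 granulocyte and monocyte genes 0 passed limma's threshold, against 14% at matched level, and 0 had an unadjusted p under 0.05. The highest of them on any of the 6 arrays read 6.67. The arrays of the lines did not overlap in 5 of these 19 genes, all with D218Y below, as in 30.7% of all genes. Of 16 lymphoid genes 1 fell (Nkg7, -0.25 ± 0.09) and 15 did not pass, with none above 6.38. That is 6.25%, against 10.5% at matched level. Of 12 genes of stroma and endothelium 2 fell (Col3a1, -0.26 ± 0.08, and Cxcl12, -0.18 ± 0.05), with none above 7.52. Here 16.7% were called, against 21.8% at matched level. The calls of Nkg7, Col3a1 and Cxcl12 were each lost under some alternative processing.

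The interleukin receptor genes Il9r and Il4ra were among the larger falls. Il9r, the interleukin 9 receptor, read 7.89, 7.95 and 7.88 in D218Y, against 10.81, 10.76 and 10.82 in R216W, and fell by 2.89 ± 0.05, or 7.41-fold (adjusted p = 6.28e-15). Il4ra, the interleukin 4 receptor, read 7.62, 7.58 and 7.60 in D218Y, against 9.84, 10.03 and 9.96 in R216W, and fell by 2.34 ± 0.06 (adjusted p = 4.83e-13). R216W was the line that stood out for Il4ra: D218Y differed from WT by -0.16 (adjusted p = 0.0448) and R216W by 2.18 (adjusted p = 6.89e-12). Of 24 genes of cytokine reception and signalling, 8 fell, 7 rose and 9 did not pass, with a median of -0.10, and 62.5% were called, near the 59.3% at matched level. Pim1, a kinase induced by cytokines, fell by 1.59 ± 0.04, Socs2, a suppressor of cytokine signalling, rose by 1.35 ± 0.04, and Stat3 rose by 0.75 ± 0.04. Stat5b differed by 0.01 ± 0.04 (95% interval -0.08 to 0.09).

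Genes on the ribosome biogenesis list, which also holds Srm and Odc1 of polyamine synthesis, were higher in D218Y throughout. All 29 measured genes rose, 10 of them at least 2-fold, with a median of 0.81 and a range from 0.26 to 1.39. Rrp9, which helps process ribosomal RNA, read 10.64, 10.63 and 10.59 in D218Y, against 9.16, 9.25 and 9.30 in R216W, and rose by 1.39 ± 0.05 (adjusted p = 6.97e-12). Rrs1, a ribosome assembly factor, rose by 1.34 ± 0.11, Polr1b, a subunit of RNA polymerase I, by 1.26 ± 0.04, and Srm, which makes spermidine, by 1.21 ± 0.05. Npm1, nucleophosmin, had the smallest rise (0.26 ± 0.08). The mean of the 29 genes on an array ran from 10.94 to 10.95 in D218Y and from 10.03 to 10.10 in R216W. Most of these genes are bright, and in the highest of the 4 level bins 70.0% of genes passed in either direction. At matched level the share was 68.3%, against 100.0% of the list.

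Genes of amino acid supply and of the stress factor ATF4 were also mostly higher. Of 17 measured, 13 rose, 1 fell and 3 did not pass, with a median of 0.43. Among them 82.4% were called, against 55.4% at matched level. Slc7a5, the light chain of the leucine transporter, read 12.46, 12.48 and 12.47 in D218Y, against 11.04, 11.07 and 11.02 in R216W, and rose by 1.42 ± 0.03 (adjusted p = 1.31e-13). Cth, which makes cysteine, rose by 1.06 ± 0.10, Ddit3, the stress factor CHOP, by 0.88 ± 0.05, and Atf4 by 0.55 ± 0.04. For Ddit3 the R216W arrays, at 8.58 to 8.71, were below all other lines, with WT at 9.68 to 9.79. Asns, asparagine synthetase, did not pass, at 12.69 to 12.71 in D218Y and 12.69 to 12.71 in R216W (95% interval of the difference -0.07 to 0.07).

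Of 16 glycolysis genes, 9 rose, 2 fell and 5 did not pass, with a median of 0.23, and 68.8% were called, near the 59.5% at matched level. Pfkm, the muscle-type phosphofructokinase, read 10.85, 10.83 and 10.78 in D218Y, against 8.93, 8.95 and 8.98 in R216W, and rose by 1.87 ± 0.04 (adjusted p = 3.49e-14), with WT arrays between at 9.64 to 9.70. Pgam1, phosphoglycerate mutase, rose by 0.73 ± 0.06 and Slc2a3, a glucose transporter, by 0.72 ± 0.12. Pdk1, which holds back entry of pyruvate into mitochondria, fell by 0.71 ± 0.08, and Hk1 differed by -0.01 ± 0.06. Of 18 genes of sterol synthesis, 10 fell, 4 rose and 4 did not pass, with a median of -0.25, and 77.8% were called, against 66.3% at matched level. Idi1, an isomerase of the isoprenoid pathway, read 11.14, 11.20 and 11.26 in D218Y, against 12.16, 12.07 and 12.16 in R216W, and fell by 0.93 ± 0.06. Fdft1, squalene synthase, fell by 0.78 ± 0.05 and Hmgcs1, an early enzyme of the pathway, by 0.77 ± 0.05. In the case of Hmgcs1 the R216W arrays, at 10.96 to 11.04, were above WT at 10.27 to 10.45.

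Genes that hold back the cell cycle were mostly lower in D218Y. Of 18 measured, 13 fell, 3 rose and 2 did not pass, with a median of -0.49. Past the threshold were 88.9%, against 58.5% at matched level. Gadd45a, a growth arrest protein, read 8.19, 8.17 and 8.17 in D218Y, against 10.10, 10.33 and 10.17 in R216W, and fell by 2.02 ± 0.06 (adjusted p = 1.11e-12). Its relative Gadd45g fell by 1.34 ± 0.07, the atypical cyclin Ccng2 by 1.26 ± 0.09 and the kinase inhibitor Cdkn2c, p18, by 1.22 ± 0.05. Cdkn1b, the inhibitor p27, read 10.30, 10.25 and 10.23 in D218Y, against 10.97, 11.02 and 11.01 in R216W, and fell by 0.74 ± 0.04. Tob1, an antiproliferative protein, went the other way, with 9.37, 9.41 and 9.35 in D218Y against 8.01, 8.11 and 8.11 in R216W (1.30 ± 0.05).

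G1 regulators split. Of 13 measured, 5 rose, 4 fell and 4 did not pass, with a median of 0.08, and 69.2% were called, near the 64.5% at matched level. Cdc25b, a phosphatase that starts mitosis, read 8.23, 8.21 and 8.29 in D218Y, against 10.37, 10.44 and 10.37 in R216W, and fell by 2.15 ± 0.04 (adjusted p = 1.74e-14). Ccnd3, the D-type cyclin that rises in maturing red cells, read 10.47, 10.37 and 10.37 in D218Y, against 11.76, 11.71 and 11.81 in R216W, and fell by 1.36 ± 0.04. Another D-type cyclin, Ccnd2, rose by 0.46 ± 0.03, and Skp2, which marks p27 for breakdown, rose by 0.86 ± 0.05. Cdk2 differed by -0.02 ± 0.04 (95% interval -0.10 to 0.07).

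Mitosis genes were lower by small amounts. Of 24 measured, 19 fell, 1 rose and 4 did not pass, with a median of -0.27 and no 2-fold difference, and 83.3% were called, against 70.0% at matched level. Cenpf, a kinetochore protein, read 8.98 to 9.08 in D218Y, against 9.76 to 9.80 in R216W, and fell by 0.76 ± 0.04. Nusap1, a spindle protein, fell by 0.72 ± 0.04 and Birc5, survivin, by 0.52 ± 0.03. Of 24 DNA replication genes, 11 fell, 2 rose and 11 did not pass, with a median of -0.10. Fewer were called than at matched level (54.2% against 70.0%). Tk1, thymidine kinase, fell by 0.58 ± 0.05 and the licensing factor Cdc6 by 0.48 ± 0.04, whereas Pole, a subunit of a replicative polymerase, differed by -0.02 ± 0.03.

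Among genes that remodel maturing red cells, every called member was lower, though the called share was near that at matched level. Of 16 erythroid ubiquitin and remodelling genes, 11 fell, none rose and 5 did not pass, with a median of -0.40, and 68.8% were called, near the 62.4% at matched level. At an unadjusted p under 0.05 in limma's test, 12 were lower and 0 higher. Ube2h, a ubiquitin-conjugating enzyme, read 9.32, 9.14 and 9.27 in D218Y, against 10.89, 10.82 and 10.85 in R216W, and fell by 1.61 ± 0.06 (adjusted p = 2.17e-11). Ube2o, which removes ribosomes and other proteins from reticulocytes, fell by 0.96 ± 0.05, with R216W at 9.75 to 9.83 above WT at 8.90 to 8.94. Of 19 autophagy genes, 9 fell, 3 rose and 7 did not pass, with a median of -0.16, and 63.2% were called, near the 65.6% at matched level. Pink1, a kinase that marks damaged mitochondria, fell by 0.81 ± 0.05, Sqstm1, the cargo receptor p62, by 0.50 ± 0.03, and Tfeb, a driver of lysosome genes, rose by 0.72 ± 0.06.

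Among 21 antioxidant genes, 7 fell, 5 rose and 9 did not pass, with a median of 0.00. Called genes made up 57.1%, below the 64.6% at matched level. Glrx, glutaredoxin, read 8.99, 8.90 and 8.88 in D218Y, against 10.41, 10.28 and 10.44 in R216W, and fell by 1.46 ± 0.06. The red cell enzymes Cat, catalase, and Prdx2, peroxiredoxin 2, each fell by 0.51 ± 0.04, and Sod2, the mitochondrial superoxide dismutase, rose by 0.64 ± 0.05. Of 14 genes of the Bcl2 family, 4 fell, 4 rose and 6 did not pass, with a median of -0.08. Their called share of 57.1% was near the 51.6% at matched level. Bcl2l1, encoding the survival protein Bcl-xL, read 8.43, 8.41 and 8.40 in D218Y, against 8.83, 8.86 and 8.83 in R216W, and fell by 0.43 ± 0.03 (adjusted p = 7.18e-08). Bcl2l2 rose by 0.44 ± 0.07 and Bcl2 by 0.34 ± 0.08, and Mcl1 differed by -0.02 ± 0.05.

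**Figure D3:**
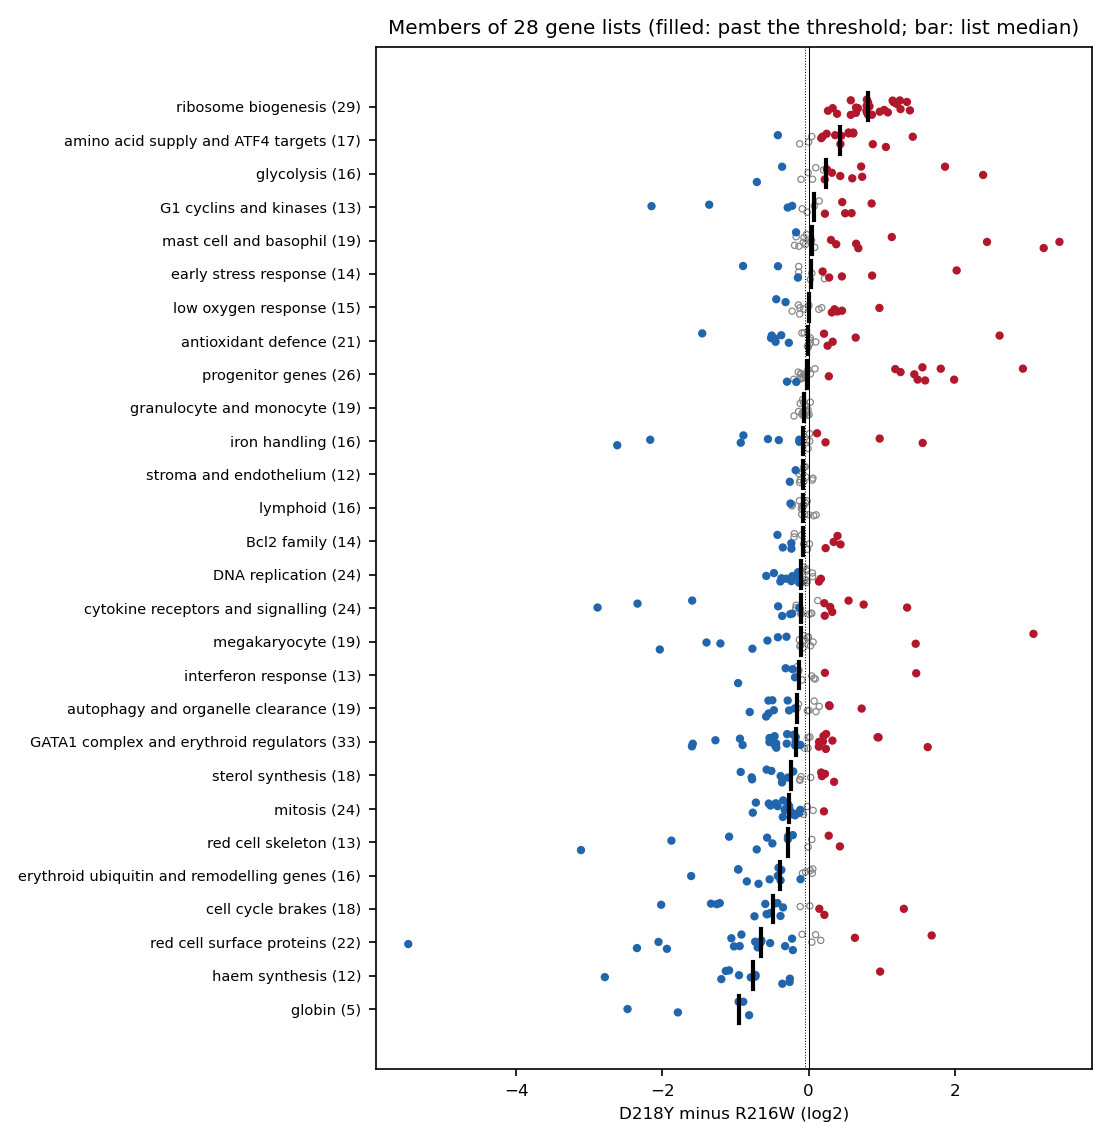
Each row is 1 of 28 gene lists, with the number of measured members in brackets, and each point is a member's D218Y minus R216W difference (log2, x axis). Filled points passed an adjusted p under 0.05 (red higher, blue lower), black bars are list medians, and the dotted line is the median of all genes, -0.05. The list medians run from -0.96 (globin) to 0.81 (ribosome biogenesis).

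A group of genes put D218Y and R216W on opposite sides of the wild type line. For 6 genes chosen as the largest of this kind the D218Y arrays were highest, then WT, then R216W. Pkhd1l1 read 9.82, 9.76 and 9.73 in D218Y and 6.73, 6.65 and 6.70 in R216W, with WT at 8.60 to 8.67. Lonrf2, a ring finger protein, read 9.17, 9.13 and 9.13 in D218Y and 6.13, 6.16 and 6.11 in R216W, with WT at 6.96 to 7.11. Ampd2, an AMP deaminase, read 11.79, 11.76 and 11.67 in D218Y and 9.49, 9.54 and 9.54 in R216W, with WT at 10.40 to 10.51. Every wild type array lay in the gap between the lines. The others were Ces2g, a carboxylesterase (3.06 ± 0.07), Mmp14, a membrane metalloproteinase (2.28 ± 0.05), and Fgf15, a fibroblast growth factor (2.24 ± 0.06).

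In the opposite order, with R216W above WT and D218Y below it, stood Rragd, Pla2g4c, Aqp8, Rgs18, Il9r and Nek6. Aqp8 read 6.63, 6.48 and 6.51 in D218Y and 10.02, 9.90 and 10.01 in R216W, with WT at 8.63 to 8.70. Pla2g4c read 6.06, 6.08 and 5.83 in D218Y and 9.38, 9.43 and 9.49 in R216W, with WT at 7.39 to 7.60. Nek6 read 8.19, 8.14 and 8.05 in D218Y and 10.73, 10.76 and 10.77 in R216W, with WT at 9.73 to 9.84. Against WT, Il9r was at -1.10 in D218Y and 1.79 in R216W, and Rgs18 at -2.17 in D218Y and 0.99 in R216W. Over all genes, D218Y minus WT called 44.4% (20.3% higher, 24.2% lower) and R216W minus WT called 16.6% (9.36% higher, 7.23% lower). These differences share the WT arrays, and the genes were chosen for the order of their lines.

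**Figure D4:**
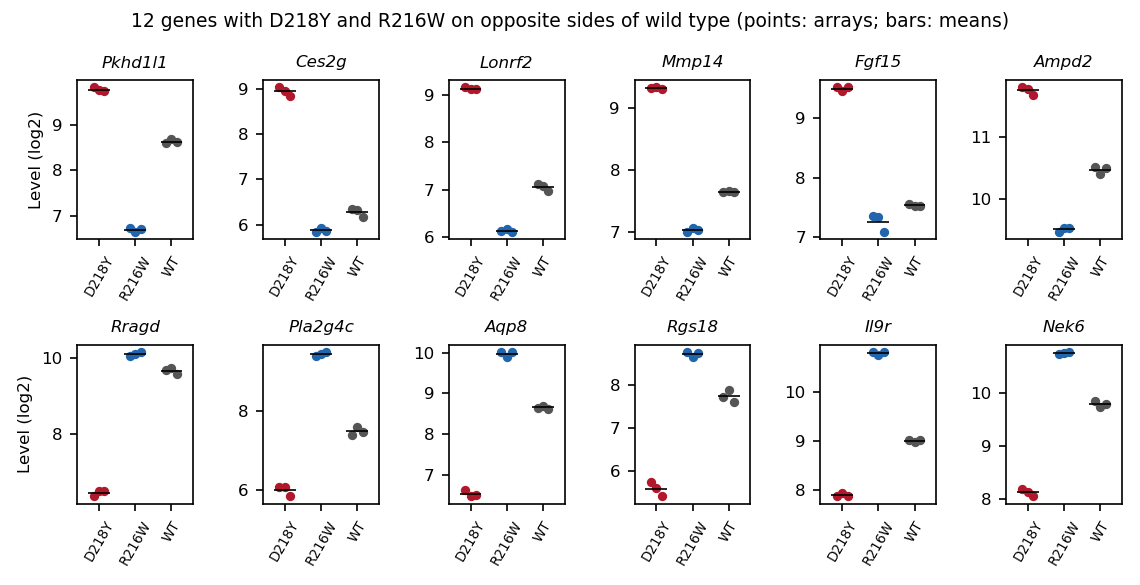
Log2 level of 12 genes on each D218Y, R216W and WT array (points; bars are line means), with a separate y axis for each gene. The upper row has D218Y highest, as in Ampd2 (11.67 to 11.79, against 9.49 to 9.54 in R216W), and the lower row R216W highest, as in Nek6 (8.05 to 8.19 in D218Y, against 10.73 to 10.77 in R216W).

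The other substitution at each residue placed these differences further. D218Y minus D218G tests whether D218Y differed from R216W to the same extent as D218G did, since the R216W arrays drop out, and R216Q minus R216W tests the same for the arginine changes. D218Y minus D218G called 6583 genes (33.0%), 17.4% higher and 15.6% lower in D218Y. R216Q minus R216W called 3369 (16.9%), 8.65% higher and 8.25% lower in R216Q. Slc4a1 differed by -4.49 ± 0.05 between D218Y and D218G (adjusted p = 4.64e-16) and by -0.94 ± 0.05 between R216Q and R216W (adjusted p = 1.18e-08). Alas2 differed by -2.65 ± 0.06 between D218Y and D218G (adjusted p = 1.86e-13) and by 0.08 ± 0.06 between R216Q and R216W (adjusted p = 0.484). Tac2, Tpsab1 and Ms4a2 differed by 3.33 ± 0.09, 3.08 ± 0.06 and 2.53 ± 0.08 between D218Y and D218G.

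For other genes D218Y minus D218G did not pass, while R216Q and R216W differed. In Ampd2 and Pfkm the D218Y arrays lay above WT and the R216W arrays below it. Ampd2 differed by -0.02 ± 0.05 between D218Y and D218G (adjusted p = 0.803) and by 1.36 ± 0.05 between R216Q and R216W (adjusted p = 1.75e-10). Pfkm differed by -0.02 ± 0.04 between D218Y and D218G (adjusted p = 0.716) and by 1.25 ± 0.04 between R216Q and R216W. Il4ra differed by -0.02 ± 0.06 between D218Y and D218G (adjusted p = 0.785) and by -1.36 ± 0.06 between R216Q and R216W. Gata2 was a further pattern, with a difference of 3.14 ± 0.04 between D218Y and D218G and of -0.09 ± 0.04 between R216Q and R216W (adjusted p = 0.232). Il9r had small or moderate differences within each residue, 0.32 ± 0.05 between D218Y and D218G and -0.82 ± 0.05 between R216Q and R216W, beside the 2.89 between D218Y and R216W.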

How the data were processed

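Total RNA of 15 G1E cultures was hybridised to Affymetrix mouse arrays. The deposited values are log2 expression values, which the authors made with Partek 6.6 and RMA, per the submitters' processing notes. RMA corrects background, makes array distributions alike and compresses fold changes of dim genes. RMA's version and settings are not given in sources used here. The group and replicate number came from each title.

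The platform annotation gave 1 gene symbol to 21780 of 28350 probe sets, several to 1618 (adult globins among them, not analysed here) and no symbol to 4952. Ahsp was not among the genes tested. The identifiers of 21689 matched the RefSeq table. A gene was represented by its brightest probe set over the 15 arrays (996 genes had several), which left 19933 genes with no filter on low values. Precision is limited by the number of arrays, which hold no read counts.

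The test was limma 3.58.1 (R 4.3.3): a mean for each of the 5 lines was fitted with lmFit to the 15 arrays together, followed by contrasts and plain eBayes, two-sided, with Benjamini-Hochberg adjustment over all genes and a threshold of 0.05. The words rose and fell mark genes past it, and a level is a log2 value. On simulated data with 19933 genes, 50 planted at each size, the D218Y minus R216W test called 4%, 48%, 84% and 100% of changes of 0.1, 0.25, 0.5 and 1, with 5 false calls. Far fewer genes were changed there than were called in the data, so these numbers do not carry over to the real comparison.

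The 28 gene lists, the named genes and the compared lines were chosen with earlier results of these data known. Named were Gata1, the 15 largest rises and 15 largest falls without overlap of arrays (placeholder symbols passed over), up to 6 members with the largest and 2 with the smallest differences per list, 6 genes in each direction with WT between the lines, and a set of erythroid and progenitor genes. Lists were counted and not tested. Alternatives were cyclic loess or quantile normalization, the 6 arrays alone, only genes over the median level, eBayes with trend and robust, a block for the replicate number, array weights, all probe sets of a gene averaged, every probe set on its own, each of the 6 arrays left out, and D218G replicate 3 left out. Motifs were searched with Python 3.11.15.

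Replicate numbers did not pair the arrays: deviations of same-numbered D218Y and R216W arrays from their line means correlated at -0.05, -0.02 and 0.04.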

Additional observations from a re-analysis of the deposited data

How the results depend on the processing

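With 16 alternatives the count of 7230 genes ran from 6301 to 8792, beside 8839 probe sets when each was tested on its own. Leaving out 1 D218Y or R216W array gave 6301 to 6777 genes, and the replicate number as a block gave 6886 and, among the named genes, changed the call of Ifih1 alone (adjusted p = 0.0673). Higher and lower genes numbered 3921 and 4671 in the 6 arrays alone, 4051 and 4741 with array weights, 3914 and 4217 without D218G replicate 3, and 3746 and 3484 as reported. The count of genes with at least a 2-fold difference was 482 (only genes over the median level) to 534, beside 602 probe sets when each was tested on its own. D218Y minus D218G called 10658 genes with array weights and 9176 without D218G replicate 3, against 6583 as reported, and the cause was not tested. Gata1 kept its call, at -0.18 to -0.19. Of 183 named genes past the threshold besides Gata1, 173 stayed past it in the same direction under every alternative that measured them and 0 reversed. The 10 lost under at least 1 were Bst2, Col3a1, Cxcl12, Fos, Higd1a, Ifih1, Irf7, Mx2, Nkg7 and Zfpm1. Ccne1, Cbfa2t3 and Sqle were gained under at least 1. Of 896 list counts 48 moved by more than 1.5 times. Quantile normalization moved the median of all genes to -0.01 and cyclic loess to 0.00. On the first principal component D218G replicate 3 lay at 1.93 and the other D218G arrays at -4.51 and -6.24.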

Other observations

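Of 14 early stress response genes, 5 rose, 3 fell and 6 did not pass, with a median of 0.03, and 57.1% were called, against 46.2% of all genes at matched level. Egr1, an immediate early transcription factor, read 9.72, 9.66 and 9.66 in D218Y, against 7.57, 7.67 and 7.72 in R216W, and rose by 2.02 ± 0.06 in limma's test (adjusted p = 2.14e-12). Ier2, another immediate early gene, rose by 0.87 ± 0.09. Dusp1, a phosphatase of MAP kinases, read 8.85, 8.83 and 8.90 in D218Y, against 9.72, 9.80 and 9.75 in R216W and 10.82 to 10.86 in WT, and fell by 0.90 ± 0.04. Of 13 interferon response genes, 2 rose, 4 fell and 7 did not pass, with a median of -0.14, and 46.2% were called, against 26.6% at matched level. Usp18, which removes the modifier ISG15, rose by 1.47 ± 0.05, and Irf9, a subunit of the interferon-activated factor, fell by 0.97 ± 0.05. Ifit2, a classical interferon target, read 4.07 to 4.19 in D218Y and 4.04 to 4.15 in R216W.

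Of 15 genes of the low oxygen response, 5 rose, 2 fell and 8 did not pass, with a median of 0.00, and 46.7% were called, near the 44.9% at matched level. Ero1a, an oxidase of the endoplasmic reticulum, read 12.46, 12.41 and 12.40 in D218Y, against 11.48, 11.49 and 11.40 in R216W, and rose by 0.97 ± 0.05 (limma, adjusted p = 2.83e-10). P4ha1, a prolyl hydroxylase of collagen, fell by 0.44 ± 0.07, and Egln3, an oxygen sensor, differed by 0.00 ± 0.08 (95% interval -0.16 to 0.17).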
